A study of Arabidopsis thaliana with 12 samples.

Results

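The genes described here are 200 Arabidopsis thaliana genes that the platform annotation names only by an AGI code (chromosome and gene order, as in AT3G16660) and whose RNA was far more abundant in shoots than in roots. Where a gene had several features, the one with the highest mean stood for it. The members were chosen by measured values: 14739 such genes were ranked by the mean log2 value of 3 shoot arrays minus that of 2 root arrays, all from the DMSO control. The 200 genes ranked first make up the set. AT3G15450, AT2G32160, AT1G75600 and AT1G27290 were left out of the ranking by the rule. Since these DMSO values chose the members, the DMSO organ difference is given as a description, with no test.

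RNA was hybridised to 12 Affymetrix whole-transcript arrays, in 4 groups of 3 by sample title. All groups carried an estradiol-inducible transgene that overexpresses CLE3, which encodes a small secreted signalling peptide. Seedlings grew for 7 days in continuous light, their roots were exposed for 24 h to estradiol (5 mM as labelled) or to DMSO, the solvent, and roots and shoots were collected separately. Each organ thus has an estradiol group and a DMSO group. The labels give no promoter or driver line, no number of independent lines and no count of pooled seedlings. No plants without the transgene are among these arrays, so an effect of estradiol itself and an effect of the transgene cannot be told apart. The labels do not say that replicates were separate cultures, so p-values rest on a spread between arrays that may be technical alone.

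Shoots of young seedlings consist mainly of green cotyledons and leaves. Their cells hold chloroplasts with stacked thylakoid membranes, and their epidermis carries a wax-covered cuticle with stomatal pores whose opening responds to blue light. Roots take up water and minerals, and most root cells hold plastids without chlorophyll. In bulk tissue, fewer cells of a type and less RNA per cell cannot be told apart, which holds for every organ difference given here.

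The gene tables used here say little about what the members do. For 197 of the 200 they give no description or name in words. The exceptions among the members are CURT1C (AT1G52220), CER26 (AT4G13840) and BLUS1 (AT4G14480), named among the synonyms of the RefSeq gene table. CURVATURE THYLAKOID proteins bend thylakoid membranes at the grana margins. ECERIFERUM 26 acts in the elongation of very long chain fatty acids for leaf wax, and BLUE LIGHT SIGNALING 1 is a kinase that acts downstream of phototropins in blue-light opening of stomata. No function is given here to any of the other members. No sequence or coordinate is printed, because no sequence was used here and no genome build is named for the array.

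The organ labels of 2 arrays go against their profiles. Over all 38408 features, Pearson correlations were 0.984 to 0.989 among the other root arrays, 0.977 to 0.981 among the other shoot arrays and 0.869 to 0.882 between the organs. The array labelled root DMSO replicate 3 correlated at 0.980 to 0.983 with shoots and at 0.872 to 0.877 with roots. The array labelled shoot estradiol replicate 3 correlated at 0.985 to 0.987 with roots and at 0.872 to 0.878 with shoots. Both were left out of the main comparisons, which used 10 arrays, and neither was moved to another group. On those arrays the 4 root markers (PYK10 and others) were lower in shoots with estradiol and the 4 green shoot markers (RCA and others) were higher, each past the threshold.

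The leading genes were close to the lower quartile of the arrays in roots and far above the upper quartile in shoots. The array-wide median lay between 4.99 and 5.09 on the log2 scale, with lower quartiles of 2.92 to 3.12 and upper quartiles of 7.00 to 7.11. AT3G16660, ranked first, read 12.14, 12.12 and 11.96 in shoots with DMSO and 12.12 and 12.21 in shoots with estradiol. Its root values were 2.97 and 3.40 with DMSO and 3.41, 3.33 and 3.12 with estradiol. Every shoot array lay far above every root array. With estradiol the difference was 8.88 log2 units (SE 0.15, 471-fold; limma adjusted p = 3.29e-05). AT3G16670, its neighbour on chromosome 3, read 11.02, 11.06 and 10.78 in shoots with DMSO and 11.07 and 11.06 with estradiol. In roots it read 2.77 and 2.77 with DMSO and 3.21, 2.21 and 3.16 with estradiol. The groups of the 2 organs did not overlap, and the difference with estradiol was 8.20 (SE 0.33).

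AT4G22485, ranked second, read 11.61, 11.66 and 11.40 in shoots with DMSO and 11.41 and 11.61 with estradiol. In roots it read 2.48 and 2.93 with DMSO and 2.73, 3.19 and 2.67 with estradiol. The organs did not overlap, and the difference with estradiol was 8.65 (SE 0.21, 402-fold). AT1G66100 read 10.95, 11.11 and 10.86 in shoots with DMSO and 10.31 and 11.11 with estradiol. Its root values were 2.56 and 2.95 with DMSO and 3.48, 3.22 and 2.73 with estradiol. The first estradiol replicate was its lowest shoot array, still far above the roots, and the difference with estradiol was 7.56 (SE 0.32).

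AT5G33370 read 10.13, 9.92 and 9.93 in shoots with DMSO and 10.07 and 10.10 with estradiol, against 2.86 and 2.23 in roots with DMSO and 2.97, 3.20 and 2.85 with estradiol. AT1G06360 read 9.11, 9.22 and 9.20 in shoots with DMSO and 9.26 and 9.05 with estradiol, against 2.20 and 2.51 in roots with DMSO and 2.47, 2.27 and 3.21 with estradiol. Shoot replicates of both genes lay within a narrow band, and no root array came near it. The differences with estradiol were 7.08 (SE 0.16) for AT5G33370 and 6.50 (SE 0.30) for AT1G06360. The other genes of the first 10 were AT4G22520 (7.65, SE 0.38), AT1G06100 (7.37, SE 0.14), AT4G29030 (6.70, SE 0.21) and AT5G48490 (6.77, SE 0.37), each as the log2 difference with estradiol.

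**Figure D1:**
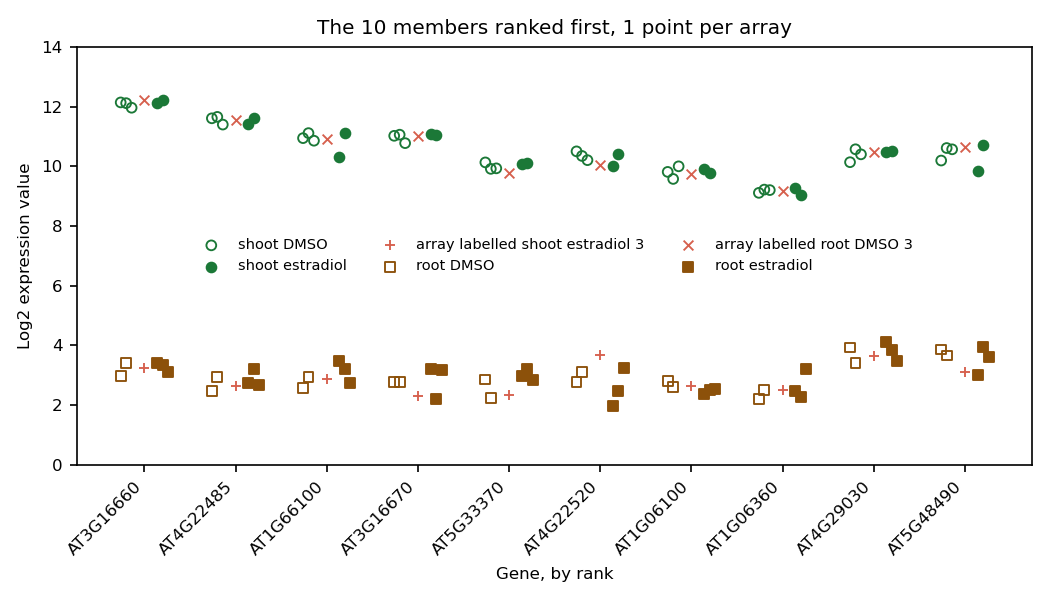
Log2 expression values of the 10 genes ranked first on each array. Each point is an array; shoot arrays lie above root arrays for every gene plotted, and the arrays labelled root DMSO replicate 3 and shoot estradiol replicate 3 lie with the other organ.

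The members with a name in words, CURT1C, CER26 and BLUS1, ranked 70, 153 and 166. CURT1C read 8.24, 8.44 and 8.29 in shoots with DMSO and 8.28 and 8.62 with estradiol, against 4.16 and 4.22 in roots with DMSO and 3.98, 4.44 and 4.71 with estradiol. The organs did not overlap, and the difference with estradiol was 4.07 (SE 0.25, 16.8-fold; limma adjusted p = 0.000136). CER26 read 6.58, 7.08 and 7.05 in shoots with DMSO and 7.01 and 6.80 with estradiol, against 3.27 and 3.61 in roots with DMSO and 3.52, 3.37 and 3.48 with estradiol. BLUS1 read 6.69, 6.85 and 7.03 in shoots with DMSO and 6.72 and 6.98 with estradiol, against 3.29 and 3.64 in roots with DMSO and 3.52, 3.60 and 3.52 with estradiol. Neither gene overlapped between organs, and the differences with estradiol were 3.45 (SE 0.14) for CER26 and 3.30 (SE 0.15) for BLUS1.

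The arrays with estradiol, which took no part in the ranking, gave an organ difference for every member. In a limma fit to these 5 arrays alone (2 shoot, 3 root), 200 of 200 members were higher in shoots at an adjusted p below 0.05, against 19.1% of all features. Among the other genes named only by an AGI code, 2464 of 14539 were called higher, or 16.9%. All 200 differences were above 0, as were 54.9% over all features, 17.5% of which were called lower in shoots. An unadjusted p below 0.05 was found for 200 members and for 46.0% of all features. The members' differences ran from 2.44 to 8.88 with a median of 3.65 (12.6-fold), while the median over all features was 0.07. Standard errors ran from 0.13 to 0.64, and adjusted p-values from 3.29e-05 to 0.00356. With the 12 arrays as labelled, no member passed: the median difference was 2.53, 125 members had an unadjusted p below 0.05 against 5513 of 38408 features in the same fit, and the lowest adjusted p was 0.318.

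The largest adjusted p belonged to AT2G15020, which read 6.66, 6.88 and 7.43 in shoots with DMSO and 6.20 and 7.04 with estradiol. Its root values were 2.77 and 3.85 with DMSO and 2.78, 3.50 and 4.21 with estradiol. Its replicates spread widely in both organs, yet no root array reached a shoot array. AT1G18810 followed, with root values from 3.91 to 5.35 and a difference of 3.23 (SE 0.44; limma adjusted p = 0.00255).

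The order and size of the differences were close to those with DMSO, which are the values that chose the members. Those ran from 3.19 to 8.89 with a median of 3.76. The 2 differences lay within 0.5 of each other for 180 members and within 0.2 for 117. Of the members, 178 were also among the 200 genes with the largest difference with estradiol. The difference with estradiol was the smaller for 142 members and the larger for 58. Members were picked for a large DMSO value, and that choice alone tilts the new value below the old. Pearson's r between the 2 differences was 0.974 over the members and 0.969 over all 14739 ranked genes, as a description across genes, which are not independent and share the labelling and scan of each array.

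**Figure D2:**
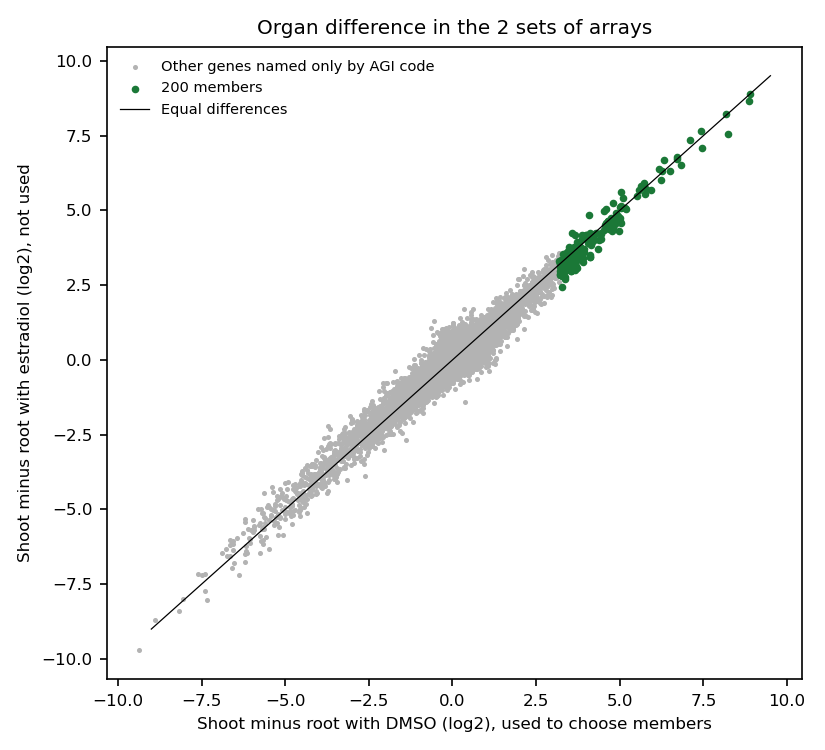
Shoot minus root difference in log2 units with DMSO (horizontal) and with estradiol (vertical) for the 14739 ranked genes, with the 200 members marked. The members lie at the right end by choice, and their differences with estradiol run from 2.44 to 8.88.

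The threshold of the ranking fell where genes lie close together. AT5G57345, AT3G59250 and AT5G37360, just inside, had DMSO differences of 3.20, 3.20 and 3.19. AT2G36145, AT1G12570 and AT1G78170, just outside, had 3.19 each. These values are a description, and genes on both sides of the threshold were alike in size.

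Differences fell quickly along the ranks. By groups of 50 ranks, the median difference with estradiol was 5.19, 3.98, 3.50 and 3.26.

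Most members were strongly hybridised in shoots, but not all were weak in roots. The median level over members was 8.21 (DMSO) and 8.20 (estradiol) in shoots, and 4.04 (DMSO) and 4.14 (estradiol) in roots. On all 5 shoot arrays, 143 members (71.5%) lay above the array's upper quartile, against 17.7% of the other genes named only by an AGI code, a share that the rule favours. On all 5 root arrays, 28 members lay below the lower quartile, against 24.5% of those other genes. A further 46 members exceeded the array median on every root array. Only 4 members were both below the lower quartile in all roots and above the upper quartile in all shoots. For the counts of 46 and 4, no share among the other genes is given. Levels are given as places on an array, and those of different genes are not compared, since probes differ in brightness.

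AT5G52970 lay above the upper quartile of every array in both organs. It read 11.85, 11.85 and 11.85 in shoots with DMSO and 11.60 and 11.80 with estradiol, against 8.36 and 8.35 in roots with DMSO and 8.06, 8.17 and 8.03 with estradiol. No root array reached a shoot array, and the difference with estradiol was still 3.61 (SE 0.14). AT4G22505 lay below the lower quartile of every root array. It read 4.96, 5.60 and 5.00 in shoots with DMSO, 4.65 and 5.60 with estradiol, against 1.17 and 1.49 in roots with DMSO and 1.01, 0.90 and 0.95 with estradiol. Its shoot signal was near the array median, and its difference with estradiol was 4.17 (SE 0.29).

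No member overlapped between the organs on the 10 arrays. The lowest of 5 shoot values exceeded the highest of 5 root values in 200 of 200 members, against 20.2% of all features. The rule used the DMSO arrays, which tilts this count. On the 5 estradiol arrays alone the count was also 200, against 32.5% of all features. Over the 10 arrays, the gap between the organs ran from 1.91 for AT2G27420 to 8.55, with a median of 3.15. It was at least 2 log2 units for 198 members. The choice of members by DMSO values favours these gaps too, and no share over all features is given for them.

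**Figure D3:**
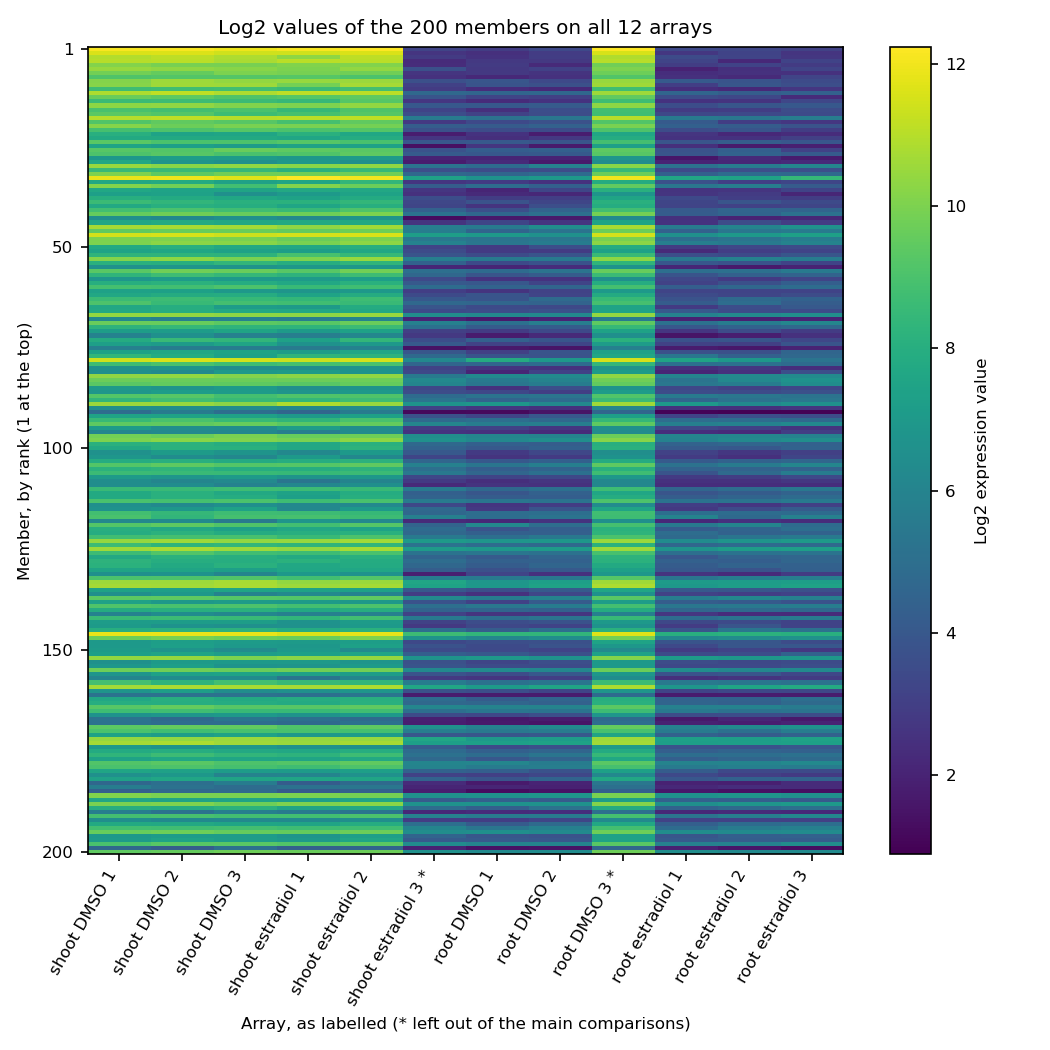
Log2 expression values of the 200 members (rows, by rank) on the 12 arrays (columns). Shoot arrays are high and root arrays low throughout, except that the arrays labelled root DMSO replicate 3 and shoot estradiol replicate 3 show the pattern of the other organ.

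The 2 arrays left out went against their organ label in every member. On the array labelled root DMSO replicate 3, all 200 members were nearer the shoot mean and above every root array, and 153 fell within the range of the shoot arrays. On the array labelled shoot estradiol replicate 3, all 200 were nearer the root mean and below every shoot array, and 124 fell within the range of the root arrays. With the root mean at 0 and the shoot mean at 1, the median position was 1.00 (0.85 to 1.20) for the former and 0.04 (-0.28 to 0.39) for the latter. Neither array entered the ranking, but members were chosen for a large organ difference, which favours these counts. No share among the other genes is given for them.

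Members varied more among root arrays than among shoot arrays. The median range over 5 arrays was 0.41 in shoots and 0.62 in roots, while for the other genes named only by an AGI code it was 0.52 and 0.42. The range exceeded 1 log2 unit for 9 members in shoots and for 35 in roots, counts for which no share among the other genes is given. Each range spans the DMSO and estradiol arrays of an organ together. AT3G22142 had the widest root range, 2.62, with 7.90 and 6.95 with DMSO and 7.53, 6.93 and 5.28 with estradiol. AT2G04039 had the narrowest shoot range, 0.09, yet in roots it ran from 5.27 to 6.66. AT4G12830 likewise spread by 0.13 in shoots and by 1.82 in roots.

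Part of the members' root spread went with single arrays, though not for every member. The third estradiol root array was the highest root array for 79 members and the lowest for 28. The median deviation there from each member's root mean was 0.13, against -0.006 for the other genes named only by an AGI code. On that array 14 photosynthesis genes, taken from the lists described next because they were called higher in shoots, deviated by a median of 0.51. AT1G80380, which was not called, was left out of them. The first DMSO and first estradiol root arrays were the lowest for 65 and 61 members, where those photosynthesis genes deviated by -0.16 and -0.23. The members deviated there by -0.12 and -0.08, and the other genes named only by an AGI code by 0.005 and -0.008. For the counts of lowest and highest arrays, no share among those other genes is given. On the second DMSO root array the members deviated by 0.05 and the photosynthesis genes by -0.05. On the second estradiol root array they deviated by 0.02 and 0.06. The part of green tissue in this spread was not tested.

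Of the genes that make up the photosynthetic light reactions, 8 of 50 listed were measured under a single gene name, and 8 of 8 were called higher in shoots with estradiol (median difference 3.15), where 19.1% of all features were called higher and 54.9% lay above 0. Of Calvin cycle and photorespiration genes, 7 of 31 were measured and 6 of 7 were called higher against the same background (median 3.02). AT1G80380 was the exception, at 0.23. Most of the measured genes carry a symbol (RCA, PRK and others) and could not be members under the rule. AT1G11860, AT1G32470 and AT1G80380 have only an AGI code and were ranked below the members. The medians of both lists lay within the range of the members' own differences.

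Some members lie next to one another in the gene order of the RefSeq table. Counting protein-coding genes, 10 members formed 5 directly adjacent pairs, AT3G16660 with AT3G16670, AT1G67860 with AT1G67865, AT2G32870 with AT2G32880, AT3G05727 with AT3G05730 and AT4G22485 with AT4G22490. Among the next 200 ranked genes there were 4 such runs with 8 genes, and among the 200 most root-sided genes 3 runs with 10 genes, so adjacency was not shown to be particular to the members. The differences with estradiol were 5.61 (SE 0.35) for AT2G32870 and 5.67 (SE 0.27) for AT2G32880.

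A stretch of 12 protein-coding genes on chromosome 4, from AT4G22470 to AT4G22540, held 5 members among 7 genes with a value. AT4G22490 read 10.30, 10.35 and 10.09 in shoots with DMSO and 10.02 and 10.40 with estradiol, against root values from 3.56 to 4.14. AT4G22513 read 6.56, 6.27 and 6.60 in shoots with DMSO and 6.22 and 6.79 with estradiol, against root values from 1.69 to 2.45. With AT4G22485, AT4G22505 and AT4G22520, they differed between organs by 4.17 to 8.65 with estradiol. The other 2 measured genes did not share this pattern. AT4G22470 differed by 0.13 (SE 0.41; limma adjusted p = 0.831), and AT4G22530 was lower in shoots, with a difference of -1.38 (SE 0.15; limma adjusted p = 0.000929). In the RefSeq table AT4G22513 lies within AT4G22510 and AT4G22520 within AT4G22530, so the gene behind those 2 signals is uncertain.

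**Figure D4:**
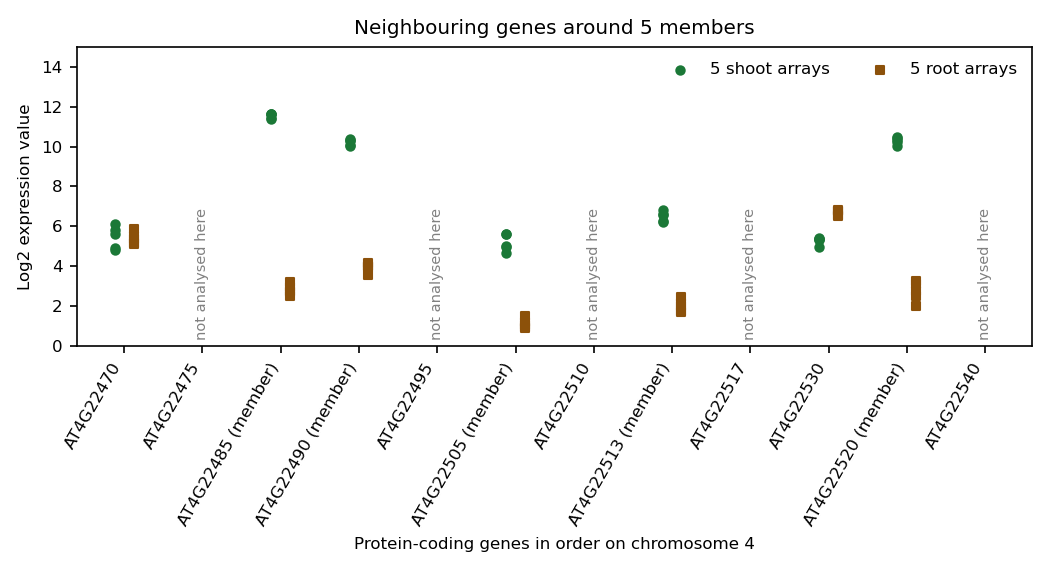
Log2 expression values on the 10 arrays for 12 neighbouring protein-coding genes of chromosome 4, in gene order. The 5 members are high in shoots and low in roots, AT4G22470 overlaps between organs, and AT4G22530 is lower in shoots.

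Members were spread over the chromosomes much as the ranked genes were. Chromosome 1 held 27.0% of the members and 26.2% of the 14739 ranked genes, chromosome 3 held 17.5% and 20.6%, and chromosome 4 held 18.0% and 14.7%.

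Estradiol applied to the roots changed no member in shoots past the threshold. By limma on 10 arrays, 0 of 200 members were called in either direction, where 0.0% of all features were called. At an unadjusted p below 0.05 there were 3 members, 1 higher and 2 lower, or 1.5% against 8.14% of all features. The smallest adjusted p was 0.554. The members' differences, estradiol minus DMSO, ran from -0.63 to 0.50 with a median of -0.03, and the median over all features was -0.01. The 95% interval lay within 1 log2 unit of 0 on both sides for 182 members, so for those a 2-fold change in either direction lay outside the interval. For the other 18 it reached 1 log2 unit or beyond. Because the shoot DMSO arrays helped to choose the members, these intervals are tilted below 0. No share over all features is given for these counts.

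Of the members, 78 lay above 0 and 122 below, against 47.5% of all features above. Since the shoot DMSO arrays also chose the members, this balance is tilted below 0 by the choice. It also rested on single arrays: the first estradiol shoot array was the lowest shoot array for 102 members. The median deviation there was -0.14 for the members and -0.009 for the other genes named only by an AGI code. For the count of 102, no share among those other genes is given. Without that array the median estradiol effect over members was 0.08, and without the second estradiol shoot array it was -0.15. After centring each array on its median, the median was 0.00 and 101 members lay above 0. In 7 members both estradiol arrays lay above all DMSO arrays, in 16 both lay below, and in 177 the groups overlapped. The groups were apart in either direction for 21.6% of all features.

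Members are named here by the smallest unadjusted p in each direction, and their differences were small beside the organ difference. Toward higher levels, AT4G36850 read 8.92 and 8.48 in shoots with estradiol against 8.27, 8.28 and 8.23 with DMSO, and the groups did not overlap. Its difference was 0.44 (SE 0.19; limma adjusted p = 0.612), and it was 0.22 without the first estradiol array and 0.67 without the second. AT3G20395 read 6.82 and 6.25 against 6.21, 6.33 and 5.57, and the groups overlapped (0.50, SE 0.27). That difference was 0.21 without the first estradiol array, 0.78 without the second and 0.27 without the third DMSO array. AT4G15700 (0.37, SE 0.28), AT4G02530 (0.22, SE 0.17) and AT3G05600 (0.18, SE 0.15) were the next by p, none past the threshold. Without the first estradiol array AT4G15700 was at 0.23, and without the third DMSO array it was at 0.18 and AT4G02530 at 0.13. AT4G02530 was also at 0.13 without the second estradiol array.

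Toward lower levels, AT5G13181 read 5.32 and 6.04 in shoots with estradiol against 6.46, 6.08 and 6.22 with DMSO, a difference of -0.58 (SE 0.22; limma adjusted p = 0.554). That difference was -0.22 without the first estradiol array and -0.94 without the second. AT5G19580 read 6.64 and 6.58 against 7.02, 6.74 and 6.95, or -0.29 (SE 0.14). In both genes the estradiol arrays lay below all DMSO arrays, for AT5G13181 by a narrow margin on the second array. AT1G52100 (-0.57, SE 0.25), AT2G27420 (-0.63, SE 0.30) and AT5G66520 (-0.48, SE 0.25) had their lowest shoot value on the first estradiol array, the same array that was lowest for 102 members. Without that array they were at -0.17, -0.33 and -0.31. Without the second estradiol array AT1G52100 was at -0.97, and without the third DMSO array AT2G27420 was at -0.37. CURT1C, CER26 and BLUS1 differed by 0.13 (SE 0.21), 0.00 (SE 0.18) and -0.01 (SE 0.16).

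**Figure D5:**
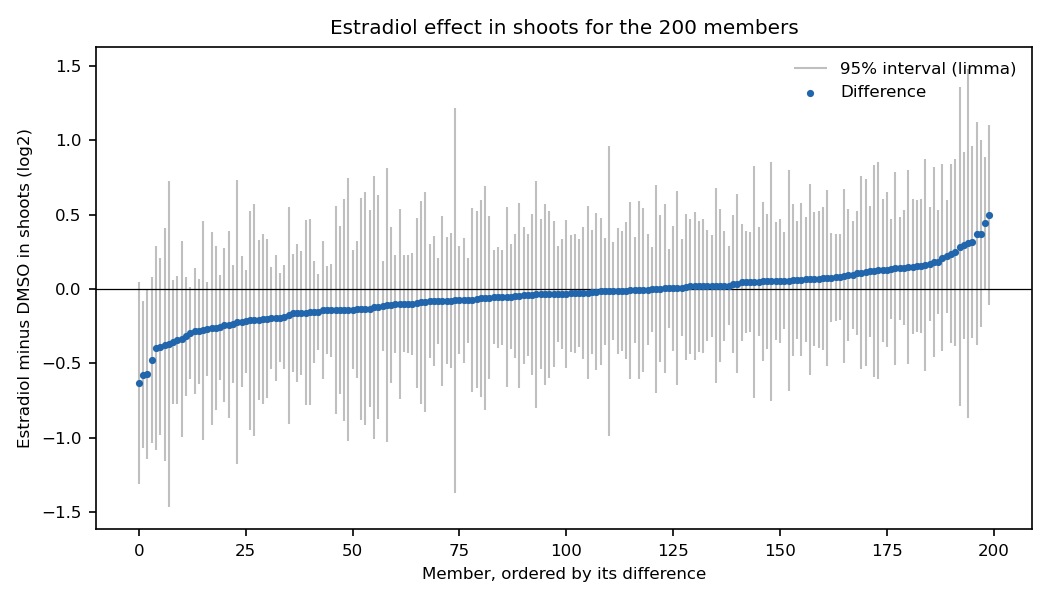
Estradiol minus DMSO difference in shoots in log2 units for the 200 members, in order of the difference, with 95% intervals from limma. The differences run from -0.63 to 0.50, and no member passed the threshold.

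In roots, the organ that met estradiol directly, members were also not called. By limma 0 of 200 passed the threshold, where 0.0026% of all features were called higher and 0.0% lower, and 11 had an unadjusted p below 0.05 (9 higher, 2 lower), or 5.5% against 3.75%. The median difference was 0.07, with 130 members above 0 against 48.2% of all features, and the choice of members tilts these values above 0. Without the first DMSO root array the median was -0.02. Every adjusted p of the genes named next was 0.999.

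AT4G17245 read 7.61, 7.43 and 8.44 in roots with estradiol against 6.70 and 7.02 with DMSO (0.97, SE 0.28). AT3G55240 read 3.30, 2.84 and 3.24 against 2.55 and 2.57 (0.57, SE 0.17). AT1G31690 read 5.38, 4.44 and 4.73 against 3.84 and 3.78 (1.04, SE 0.33). In these genes the estradiol arrays lay above both DMSO arrays, yet below every shoot array. AT5G52970 (-0.27, SE 0.11), AT2G39850 (-0.36, SE 0.16) and AT2G32870 (-0.57, SE 0.31) had the smallest unadjusted p in the other direction. Without the third estradiol root array AT2G32870 was at -0.25, and without the second it was at -0.86.

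The estradiol effect was not shown to differ between the organs for any member. The test of the difference, shoots minus roots, called 0 of 200 members by limma, where 0.0% of all features were called higher and 0.0026% lower. Differences ran from -0.84 to 0.77 with a median of -0.10, and 58 members lay above 0 against 49.2% of all features. This quantity equals the organ difference with estradiol minus that with DMSO, so these are the 58 members given above as larger with estradiol. At the unadjusted level, 4 members (2.0%) had an unadjusted p below 0.05, against 4.76% of all features. In all 4 the estradiol effect in shoots lay below that in roots. The smallest limma adjusted p was 0.888. The choice of members tilts this median below 0, and without the first estradiol shoot array it was 0.01.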

How the data were processed

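The deposited table holds 1 value per feature and array, made by the authors with Affymetrix Expression Console 1.3, per the submitters' processing notes; for its settings, nothing is stated in those notes. The deposited values, from 0.19 to 13.84, were taken as log2 expression, a scale that no label states. No signal over background was used here, and precision is limited by how many arrays there are. Groups came from sample titles. The source name, which gives estradiol for all root arrays and DMSO for all shoot arrays, was not used.

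Features were named through the platform annotation: of 38408, 16722 had a single gene, 759 more than 1, and 20927 no entry. Of the members, 199 matched the RefSeq table (TAIR10.1) by gene identifier and 1 by locus tag. No member had more than 1 feature. On all arrays, 7132 features had values equal to those of another feature, and no member was among them. Shares over all features count these and the features without an entry.

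Linear models were fitted with limma 3.58.1 in R 4.3.3 (lmFit, eBayes, two-sided) to all features. There was no filter on low values, so all 200 members were tested. Benjamini-Hochberg adjustment ran over all 38408 features, with a threshold of 0.05. The organ difference with estradiol used the 5 estradiol arrays kept, and the estradiol effects used 4 group means on 10 arrays. The scripts were tested on simulated data. Alternatives covered arrays, variance model, weights, replicate block, filter, normalization, centring, features, and the number of members. Summaries were made with Python 3.11.15.

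The members and lists were chosen with earlier results of these data known. Genes named were the 10 first by rank, the 3 on each side of the threshold, the 5 brightest in shoots and the 5 dimmest and 5 brightest in roots (listed only where another result names them, since levels of different probes are not comparable), those with the smallest p for estradiol (5 per direction in shoots, 3 in roots), and up to 2 per function group. Adjacent genes, the chromosome 4 stretch, and genes with extreme ranges or p-values were picked after their values were seen. Planned sequence features were not run.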

Additional observations from a re-analysis of the deposited data

How the results depend on the processing

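All 200 members stayed called higher in shoots with estradiol under the intensity trend, array weights, replicate block, quantile normalization, centring, 1 feature per gene and 4 group means, and without any single array. The filter on a group mean of at least 5 left 195 to be called, since it removes the dimmest members before the test. The other exception was the 12 arrays as labelled, with 0 members called, 0 features higher, 0 lower, and a median of 2.53. The median was 4.50 for the first 100 genes and 3.40 for the first 300. With 1 feature per named gene, fewer features were tested, and 3659 were higher and 3669 lower. Leaving out single arrays gave 200 members, medians of 3.58 to 3.75, and 5558 to 6168 features higher and 4820 to 5671 lower. For the estradiol effect in shoots, leaving out single arrays gave 0 to 2 features higher, 0 to 3 lower, and medians from -0.15 to 0.083. The median was -1.25 with the 12 arrays, and the same with only the array labelled shoot estradiol replicate 3 added, an alternative chosen after seeing the data. Then AT3G05600 read -1.41, AT3G20395 -0.93, AT4G02530 -0.93, AT4G15700 -1.26 and AT4G36850 -1.17, each turned in sign. For roots the median was -1.21 with the 12 arrays, and the same with only root DMSO replicate 3 added, where AT1G31690 read -0.26, AT3G55240 -0.76 and AT4G17245 -0.75, also turned. These reversals come with arrays whose profiles lie with the other organ. In roots 1 feature was called higher, and 0 with the 12 arrays, the replicate block, 1 feature per gene or shoot estradiol replicate 3 added; single arrays left out gave 0 to 1 features and medians from -0.02 to 0.15. For the difference between organs 1 feature was called lower, and 0 with the 12 arrays, the replicate block, 1 feature per gene or either array added. Its median was 1.17 with root DMSO replicate 3 and -1.32 with shoot estradiol replicate 3, and leaving out single arrays gave medians from -0.22 to 0.0053 and 0 to 23 features, the 23 without the third estradiol root array. Of 13 same-numbered array pairs, 1 correlated above 0.1 in its deviations (-0.02 to 0.12), so the numbers were not taken as pairs. In all, 8 of 10 arrays matched best an array of their own number, a hint from the data only. These matches are not separate outcomes, since in a group of 2 arrays the deviations from the group mean mirror each other. With the replicate block, 200 members were called for the organ difference (median 3.73) and 0 for the estradiol effects. The causes of changes other than those named were not tested.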
